A study of Mus musculus with 10 samples.

Results

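Neural stem and radial glial genes mark the dividing cells that line the embryonic neural tube. The group described here held 10 genes, Nes, Vim, Fabp7, Slc1a3, Prom1, Msi1, Msi2, Hmga2, Lin28a and Lin28b, chosen by name, with a rule that uses no measured value. All 10 were found among 48972 genes counted in the files, and all 10 passed the filter on low counts that left 17835 genes for testing. Neuroepithelial cells carry the intermediate filament proteins nestin (Nes) and vimentin (Vim), and as they turn into radial glia they add the fatty acid binding protein encoded by Fabp7 and the glutamate transporter encoded by Slc1a3. Prom1 encodes prominin, a membrane protein of apical protrusions, while Msi1 and Msi2 encode RNA-binding proteins that keep progenitors undifferentiated. Lin28a and Lin28b block the maturation of let-7 microRNAs, Hmga2 encodes a chromatin protein that let-7 represses, and these 3 genes are known for high levels in early embryos and a decline as development proceeds.

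RNA came from YFP-positive cells sorted by flow cytometry from dissociated mouse spinal cords at e10.5, with 5 control and 5 cdKO samples. Every sample carried Olig2-Cre+/- and Rosa26R-YFP+/-. Controls were Oc1+/Flox with Oc2+/Flox, so that 1 copy of each of Onecut1 and Onecut2 could be deleted in the Cre lineage of the controls as well, and cdKO embryos were Oc1-/Flox with Oc2-/Flox. Because Cre was driven by Olig2, a gene of motor neuron progenitors, the YFP label covered progenitors, their motor neuron offspring and, as the study notes, some V3 interneurons. The labels name the sorted cells motor neurons, and do not say whether each sample was a single embryo, a pool or from a litter of its own, so the p-values below measure the spread between these samples, whatever its source. In such bulk samples fewer cells of a type and less RNA per cell cannot be told apart.

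A few properties of the whole data set bear on the values below. The total of exon bin counts per sample ran from 63932395 to 107709534. cdKO replicate 5 stood apart from the other 9: it held counts on 198569 exon bins, against 243970 in control replicate 5 and 254982 to 271591 in the other 8, and across 6331 genes the median position of its counts was shifted towards the 3′ end by 0.0612 of the gene's exon length, against -0.0045 to 0.0052 in the others. Results that rest on it are given with and without it. The summed level of 12 pan-neuronal genes was lowest in control replicate 5, at 1228 CPM (counts scaled to a common library size, with TMM factors), and highest in cdKO replicate 5, at 7696 CPM. The TMM factor of cdKO replicate 5 was 0.717, against 0.947 to 1.17 in the other 9. This low factor raises all its CPM values above those from library size alone. On library size alone, control replicate 1 and cdKO replicate 1 were above it in the pan-neuronal sum. Of the targeted genes, Onecut1 averaged 5.84 ± 2.82 CPM (SD, n = 5) in controls and 2.71 ± 1.26 CPM (n = 5) in cdKO samples and Onecut2 averaged 4.80 ± 3.34 and 6.91 ± 7.14 CPM, with neither passing the test (edgeR adjusted p = 0.938 and 0.997). The higher Onecut2 mean rested on cdKO replicate 5, at 19.2 CPM. All other cdKO samples lay inside the control range of 0.988 to 9.39 CPM. The paper states that its Onecut2 reads in the mutants came from truncated transcripts, which yield no functional peptide. Whether the Onecut2 counts here came from such transcripts was not tested. The third paralog, Onecut3, which was not targeted, was at 0.330 to 0.682 CPM in controls and at 0 to 0.0381 CPM in cdKO samples, without overlap (edgeR adjusted p = 0.111). In its own comparison the paper lists lower Onecut1 and Onecut3 RNA in the mutants, both with an adjusted p under 0.05. By immunostaining it reports loss of OC-1, OC-2 and OC-3 protein from Isl1-positive motor neurons. The motor neuron gene Isl1 was present in every sample, at 225 ± 80.5 CPM in controls and 127 ± 32.9 CPM in cdKO samples (n = 5 each, edgeR adjusted p = 0.938). Not all motor neuron genes were, as Slc5a7 was at 0.0148 CPM in control replicate 5.

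Hmga2, Lin28a and Lin28b share a sequence feature that the choice of genes did not use, namely matches to the let-7 seed in their 3′ untranslated regions. The 8 mature let-7 microRNAs of the mouse in RefSeq have the same seed, bases 2 to 8, printed in capitals in these 3 members of the family, chosen to show where they differ outside it.
mmu-let-7a-5p: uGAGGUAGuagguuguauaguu
mmu-let-7d-5p: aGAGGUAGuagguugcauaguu
mmu-let-7g-5p: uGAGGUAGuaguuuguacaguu
The DNA letters that pair with this seed, CTACCTC, were searched on the transcript strand of the 3′ UTR of each gene's principal transcript in GENCODE M21 (GRCm38). Hmga2 held 4 matches, Lin28b 4 and Lin28a 2, and the other 7 members held none. Of all 20488 3′ UTRs searched, 8.25% held a match and 0.146% held 3 or more. Long UTRs hold more matches by length alone, and of the 4240 UTRs of 2000 to 5500 bases, the range that takes in these 3 genes, 17.3% held a match and 0.330% held 3 or more. The 10 matches are printed as 23-base windows, 5′ to 3′ on the transcript strand, with the seed match in capitals. All lie on the minus strand of GRCm38.
Hmga2 site 1, chr10:120364224-120364246: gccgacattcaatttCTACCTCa
Hmga2 site 2, chr10:120362987-120363009: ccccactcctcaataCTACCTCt
Hmga2 site 3, chr10:120362549-120362571: ctgatttgcaaggaaCTACCTCc
Hmga2 site 4, chr10:120361691-120361713: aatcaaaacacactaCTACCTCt
Lin28a site 1, chr4:134005189-134005211: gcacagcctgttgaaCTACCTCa
Lin28a site 2, chr4:134004551-134004573: gagatcgccacaaacCTACCTCa
Lin28b site 1, chr10:45381022-45381044: acccgggcgggaagtCTACCTCa
Lin28b site 2, chr10:45378648-45378670: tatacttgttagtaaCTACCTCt
Lin28b site 3, chr10:45378476-45378498: gtttacagcacatggCTACCTCc
Lin28b site 4, chr10:45377060-45377082: aaatgatggcaccgaCTACCTCt
A match is a description of the letters, and let-7 itself was not measured in these libraries. The promoters were searched for the Onecut core letters ATCAAT and ATCGAT on both strands, in RefSeq windows of 250 bases before to 50 bases after the start (GRCm38.p6). None of the 12 windows of 9 members held either word, against 8.40% of 32851 windows of all genes. The Msi2 windows overlap each other, and with so few windows a count of 0 is near that share. The Lin28b window, chr10:45470152-45470451, lies inside the gene as annotated in GENCODE M21. Msi1 had no window in the table.

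The members spanned a wide range of levels. On the scale of CPM per kilobase of the principal transcript, the control medians (n = 5) ran from Vim at 270 and Fabp7 at 191 through Prom1 at 99.1 and Nes at 18.02 down to 6 genes at low level. These were Hmga2 at 2.96, Slc1a3 at 2.4999, Msi2 at 2.49, Lin28b at 2.16, Msi1 at 1.63 and Lin28a at 1.61 CPM per kilobase. Vim, with controls from 203 to 301 CPM per kilobase, and Fabp7, from 90.1 to 616, overlapped, and so did Fabp7 and Prom1, which ran from 83.6 to 139. Prom1 was above Nes, which ran from 10.4 to 23.3, in every control sample, and Nes was above the 6 low genes, whose highest control value was 8.004 for Hmga2. The 6 low genes overlapped each other and their order changed when all exon bins were used for the length, whereas the first 4 kept their rank. Vim, Prom1, Fabp7 and Nes made up 90.3% to 97.2% of the summed CPM of the 10 members.

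**Figure D1:**
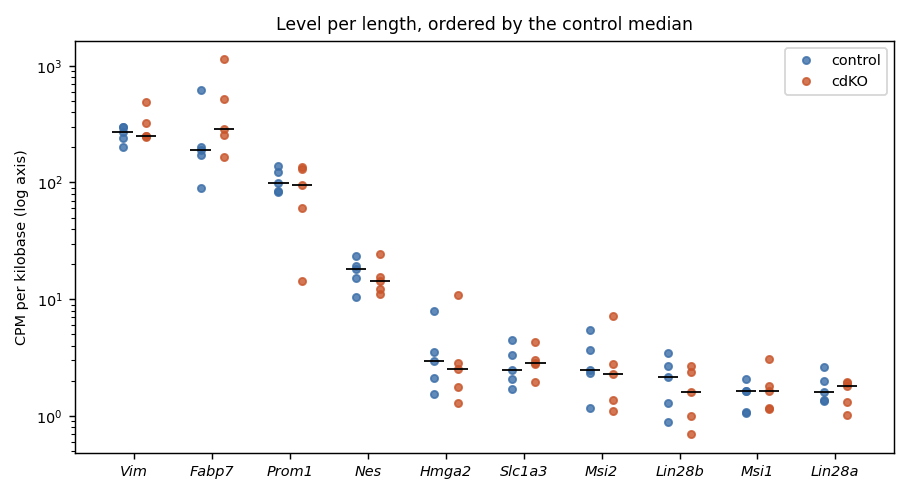
Level of each gene in CPM per kilobase of its principal transcript (log axis), ordered by the control median, with 1 point per sample, control in blue and cdKO in orange, and a bar at the group median (n = 5 each). Vim, Fabp7 and Prom1 lie highest, Nes follows, and the 6 other genes overlap at low level.

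Between control and cdKO cells, none of the 10 genes differed beyond the spread between samples. In edgeR's quasi-likelihood test across 17835 genes, 0 members passed an adjusted p of 0.05, where 0% of all genes did, and 0 had an unadjusted p under 0.05, where 888 genes or 4.98% of all genes did. DESeq2 called 19 genes and limma-voom 3 genes of the whole table, with 0 members among them. No member had groups that did not overlap in CPM, a property of 0.404% of all genes. The log2 fold change of cdKO over control was below 0 for 5 of the 10 members and for 51.8% of all genes, and its median was 0.02 over the members and -0.02 over all genes tested. Without cdKO replicate 5 it was below 0 for 7 of the 10 members, with a median of -0.07. These values do not show that the groups were alike, because the 95% intervals of the members' log2 fold changes were wide, the narrowest being that of Vim, from -0.35 to 0.84.

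**Figure D2:**
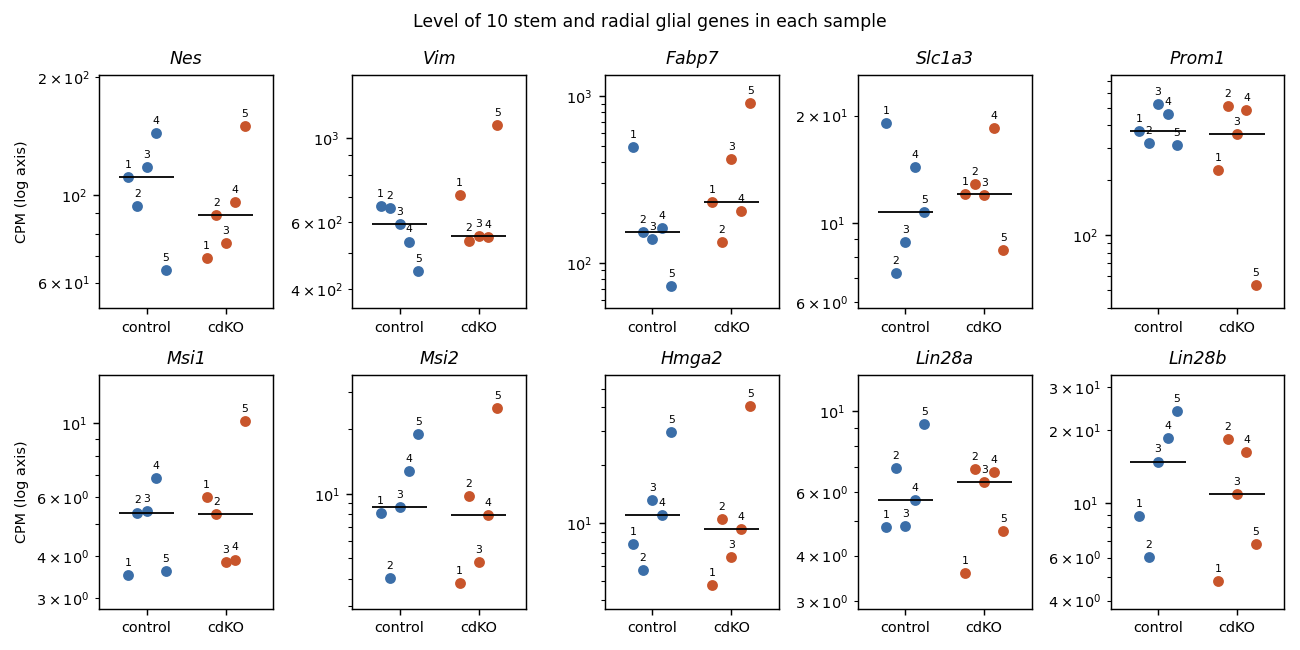
Level in CPM (log axis, each gene on its own scale) in the 5 control and 5 cdKO samples, numbered by replicate, with a bar at the group median. Control and cdKO samples overlap for all 10 genes, and cdKO replicate 5 is the highest of the 10 samples for 6 of them and the lowest for Prom1.

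Among the filament genes, Nes (chr3:87971078-87980451, plus strand, GRCm38, as for all positions given here) in control replicates 1 to 5 was at 112, 93.8, 118, 144 and 64.5 CPM, and in cdKO replicates 1 to 5 at 69.2, 89.3, 75.8, 96.3 and 150 CPM. Control replicate 5 was the lowest of all 10 samples and cdKO replicate 5 the highest, and 4 of 5 cdKO samples lay inside the control range. The log2 fold change was -0.15 (SE 0.30, edgeR adjusted p = 0.997, exact two-sided permutation p = 0.579, n = 5 and 5), and -0.37 without cdKO replicate 5. Vim (chr2:13573927-13582826, plus strand) in control samples was at 664, 656, 594, 534 and 447 CPM, and in cdKO samples at 706, 538, 552, 548 and 1080 CPM. Its lowest value again belonged to control replicate 5 and its highest to cdKO replicate 5, and it varied least of the members among controls, with a coefficient of variation of 15.6%. The log2 fold change of Vim was 0.24 (SE 0.28, edgeR adjusted p = 0.997), and 0.02 without cdKO replicate 5.

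Fabp7 (chr10:57784881-57788450, plus strand), the radial glial fatty acid binding protein gene, had the largest log2 fold change of the members and a large spread in both groups. Control samples were at 496, 153, 139, 162 and 72.5 CPM and cdKO samples at 231, 133, 417, 205 and 910 CPM. 3 samples stood high, control replicate 1 and cdKO replicates 3 and 5, and the groups overlapped. Its log2 fold change was 0.89 (SE 0.57, 95% interval -0.34 to 2.12, edgeR unadjusted p = 0.143, adjusted p = 0.972, exact two-sided permutation p = 0.206, n = 5 and 5). It came to 0.26 without cdKO replicate 5 and to 0.04 without both samples numbered 5. Without control replicate 1 it was 1.52, with an unadjusted p of 0.0144 and an adjusted p of 0.971 in edgeR, and over all alternatives its adjusted p ran from 0.705 to 0.9999. The high value of cdKO replicate 5 was present along the whole gene, at 159 CPM on the first exon, where the other 9 samples ran from 15.6 to 98.2, and at 258 CPM on the last exon, where they ran from 18.01 to 120.

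Slc1a3 (chr15:8634124-8710764, minus strand), the glutamate transporter gene, was at 19.1, 7.24, 8.81, 14.4 and 10.7 CPM in control samples and at 12.1, 12.8, 12.004, 18.4 and 8.39 CPM in cdKO samples. All 5 cdKO samples lay inside the control range, with control replicate 1 the highest and control replicate 2 the lowest. The counts of cdKO replicate 5 were uneven along the gene. On blocks 8 to 12 of its exon bins that sample held 23 counts, or 0.453 CPM, against 3.25 to 8.23 CPM in the others. On the last exon it held 5.38 CPM against 2.57 to 6.60 CPM. The log2 fold change of Slc1a3 was 0.08 (SE 0.33, edgeR adjusted p = 0.998, exact permutation p = 0.706, n = 5 and 5).

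Prom1 (chr5:43993620-44102032, minus strand), the prominin gene, was at 371, 319, 520, 463 and 313 CPM in control samples and at 226, 510, 358, 487 and 53.3 CPM in cdKO samples. cdKO replicate 5 was far below all others, at 0.126 of the median of the other 4 cdKO samples, and 3 of 5 cdKO samples lay inside the control range. For Prom1 the log2 fold change was -0.28 (SE 0.46, 95% interval -1.27 to 0.71, edgeR adjusted p = 0.997), and -0.01 without cdKO replicate 5. The low value was uneven along the gene. On the 11 middle blocks of its exon bins, blocks 15 to 25, cdKO replicate 5 held 223 counts where the other samples held 6814 to 17739, which is 4.39 CPM against 86.5 to 202 CPM. Its last exon held 16.1 CPM against 17.6 to 41.5 CPM in the others. Prom1 has 2 annotated starts, and counts lay on the first exon of the upstream one in every sample, 104 in cdKO replicate 5 and 198 to 445 in the others.

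The musashi genes, which encode RNA-binding proteins, were both low. Msi1 (chr5:115429599-115455698, plus strand) was at 3.52, 5.41, 5.46, 6.86 and 3.60 CPM in control samples and at 6.02, 5.37, 3.83, 3.91 and 10.2 CPM in cdKO samples. Only cdKO replicate 5 lay outside the control range, and the log2 fold change was 0.24 (SE 0.36, edgeR adjusted p = 0.997) with it and -0.05 without it. Msi2 (chr11:88339382-88718513, minus strand) was at 8.09, 4.05, 8.67, 12.8 and 19.1 CPM in control samples and at 3.82, 9.71, 4.80, 7.93 and 25.2 CPM in cdKO samples. Both samples numbered 5 were the highest of their groups, and the log2 fold change was -0.04 (SE 0.53, edgeR adjusted p = 0.999), -0.67 without cdKO replicate 5 and 0.29 without control replicate 5. Of the Msi2 counts, 53.3% lay on the principal transcript, so its level per kilobase leaves out counts on longer forms. The log2 ratio of Msi2 to Msi1 was 0.89 ± 0.95 in control samples and 0.54 ± 0.72 in cdKO samples (SD, n = 5 each, difference -0.35, exact two-sided permutation p = 0.532, adjusted over the 2 ratios tested 0.643).

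Hmga2 (chr10:120361275-120476469, minus strand), the chromatin protein gene with 4 of the let-7 seed matches printed above, was at 7.82, 5.70, 13.2, 11.0 and 29.7 CPM in control samples and at 4.79, 10.46, 6.62, 9.30 and 40.7 CPM in cdKO samples. Both samples numbered 5 stood above the other 8, which did not exceed 13.2 CPM, and the groups overlapped. For Hmga2 the log2 fold change was 0.09 (SE 0.59, 95% interval -1.18 to 1.37, edgeR adjusted p = 0.998, exact permutation p = 0.825, n = 5 and 5). It was -0.77 without cdKO replicate 5, 0.60 without control replicate 5 and -0.28 without both. The excess of both samples lay on the last exon, which holds the long 3′ UTR and its seed matches. That exon had 1874 counts in control replicate 5 and 1995 in cdKO replicate 5, while the remaining 8 samples had 298 to 1033 counts, and the exons before it had 137 and 72 counts next to 77 to 185. The last exon thus held 13.7 times the counts of the exons before it in control replicate 5 and 27.7 times in cdKO replicate 5, where the remaining 8 samples ranged from 3.04 to 8.33 times. On the blocks other than the 3′-most one, Hmga2 was at 1.68 ± 0.574 CPM in control samples and 1.25 ± 0.190 CPM in cdKO samples (SD, n = 5 each, exact two-sided permutation p = 0.175). Of the Hmga2 counts, 88.3% were on an exon bin that overlaps 1700006J14Rik on the other strand, and the counting did not use strand, so reads of the latter could not be told apart there.

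Lin28a and Lin28b, the let-7 processing inhibitors, did not follow Hmga2 in cdKO replicate 5. Lin28a (chr4:134003330-134018841, minus strand) was at 4.79, 6.99, 4.84, 5.69 and 9.25 CPM in control samples and at 3.59, 6.91, 6.39, 6.82 and 4.69 CPM in cdKO samples. Control replicate 5 was the highest and cdKO replicate 1 the lowest, and the log2 fold change was -0.15 (SE 0.32, 95% interval -0.84 to 0.54, edgeR adjusted p = 0.997). In cdKO replicate 5, Lin28a had 6 counts upstream of the last exon and 232 on it, against 74 to 193 and 209 to 536 in the others. Lin28b (chr10:45376620-45486395, minus strand) was at 8.84, 6.05, 14.8, 18.6 and 23.9 CPM in control samples and at 4.81, 18.3, 11.0, 16.2 and 6.83 CPM in cdKO samples. The same pair of samples was highest and lowest as for Lin28a, and the log2 fold change was -0.34 (SE 0.45, 95% interval -1.30 to 0.63, edgeR adjusted p = 0.997). It was -0.19 without cdKO replicate 5 and -0.08 without control replicate 5. The log2 ratio of Lin28b to Lin28a was 1.02 ± 0.75 in control samples and 0.83 ± 0.43 in cdKO samples (SD, n = 5 each, difference -0.19, exact two-sided permutation p = 0.643). Of the Lin28a counts, 7.37% lay on bins shared with Gm13061.

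**Figure D3:**
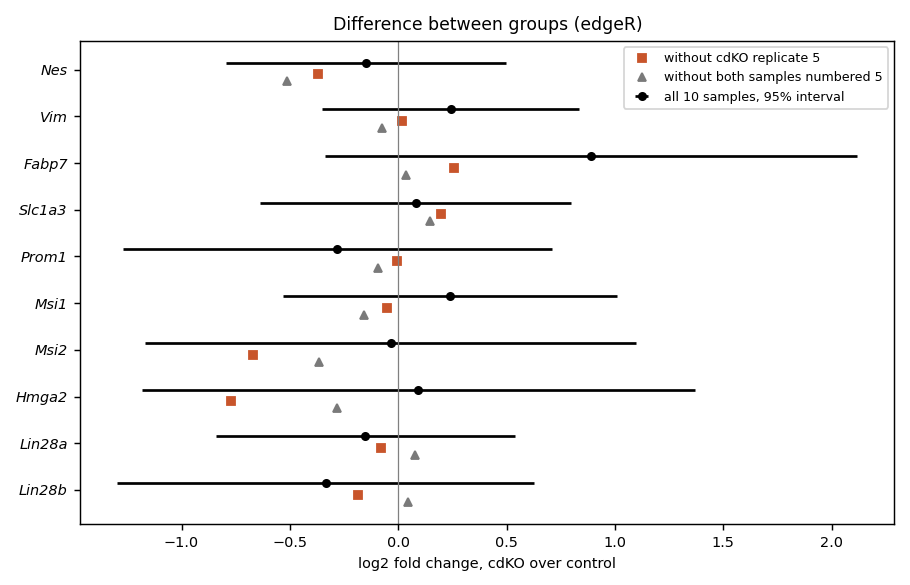
log2 fold change of cdKO over control from edgeR for each gene, as black points with 95% intervals over all 10 samples, with squares for the fit without cdKO replicate 5 and triangles for the fit without both samples numbered 5. All 10 intervals include 0, and Fabp7, Msi2 and Hmga2 shift most between the fits, Fabp7 from 0.89 to 0.26 and 0.04.

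The uneven counts of cdKO replicate 5 along Prom1, Hmga2 and Lin28a were seen along most of the members. The share of a gene's counts on its 3′-most block of exon bins (a run of bins that touch) was above that of all 9 other samples for 9 of the 10 genes. For Nes it was 91.3% against 54.4% to 71.9%, for Vim 36.6% against 13.6% to 20.3%, for Prom1 30.3% against 7.32% to 10.499%, and for Lin28a 97.5% against 73.1% to 78.9%. Msi1 showed the widest gap, with 81.1% against 6.54% to 38.1%. Slc1a3 was at 64.1% against 29.2% to 35.9%, Msi2 at 72.9% against 36.2% to 52.0% and Hmga2 at 96.5% against 75.3% to 93.2%. Fabp7, the gene with the shortest principal transcript, differed least, with 28.3% against 24.1% to 26.2%. Lin28b was the exception in this share, at 46.1% against 49.1% to 63.0%, but its counts were uneven too. On its blocks 7 and 8 cdKO replicate 5 held 7 counts, or 0.138 CPM, against 0.470 to 5.11 CPM in the others. The mean position of its counts along the principal transcript was 0.436 of the length, against 0.384 to 0.424. Control replicate 5 was the highest of the other 9 for Nes, Vim, Prom1, Msi1, Msi2 and Hmga2.

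The level of cdKO replicate 5 relative to the other samples thus differed between the ends of several members. On the last exon of Nes it held 137 CPM against 39.5 to 81.3 in the others, and on the first 3 exons 13.02 CPM against 18.2 to 63.0, so that the highest sample by the whole gene was the lowest by its first exons. On the first block of Vim cdKO replicate 5 was likewise the lowest, at 40.0 CPM against 83.7 to 206 in the others. That block, of 3522 touching bases, is longer than the principal transcript of 2193 bases, so it is more than the first exon. On the last exon of Vim cdKO replicate 5 was the highest, at 395 CPM against 75.1 to 99.1. On the last exon of Msi1 it held 8.27 CPM against 0.394 to 1.37. On the first 13 blocks of Msi1 it held 0.729 CPM, above control replicate 5 at 0.606 CPM and below the remaining 8 samples, which ran from 2.00 to 4.16 CPM. Over all blocks of Vim other than the 3′-most one, cdKO replicate 5 was still the highest at 685 CPM, against 356 to 610. Without the 3′-most block of every gene, the log2 fold change of Msi1 was -0.10 and that of Hmga2 -0.32, and no member passed the test. The part of this coverage in the members' levels was not tested beyond these fits.

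**Figure D4:**
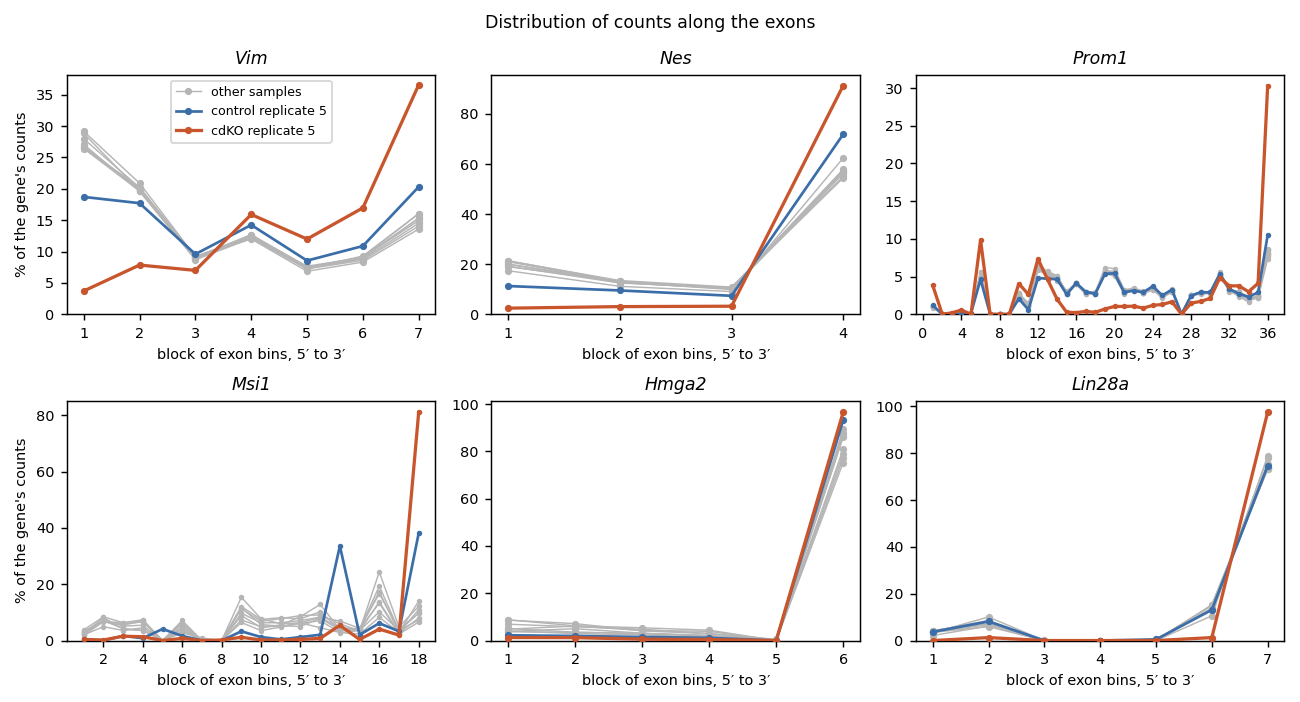
Percent of each gene's counts on each block of touching exon bins, numbered 5′ to 3′, for 6 of the genes, with cdKO replicate 5 in orange, control replicate 5 in blue and the other 8 samples in grey. In cdKO replicate 5 the last block takes 36.6% of Vim, 91.3% of Nes and 81.1% of Msi1 counts, and the middle of Prom1 is nearly empty.

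The samples at the ends of the range differed from member to member. In CPM with TMM factors, cdKO replicate 5 was the highest of 10 samples for Nes, Vim, Fabp7, Msi1, Msi2 and Hmga2. In counts over library size alone, control replicate 4 was above it for Nes and Msi1, and control replicate 5 for Msi2 and Hmga2. Control replicate 5 was the highest for Lin28a and Lin28b and the lowest for Nes, Vim and Fabp7. cdKO replicate 1 was the lowest for Msi2, Hmga2, Lin28a and Lin28b, and near the middle or above for Vim, Fabp7 and Slc1a3. The sum over the 10 members ran from 993 CPM in control replicate 5 to 2289 CPM in cdKO replicate 5, and over the other 8 samples from 1257 to 1694 CPM. This sum also uses the TMM factors, and on library size alone control replicate 1 was above cdKO replicate 5.

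The order of the samples by marker lists of other cells was compared with that by the members. The 3 samples highest in Fabp7, cdKO replicates 5 and 3 and control replicate 1, were also the 3 highest in the summed level of 9 erythroid genes, at 66.1, 54.8 and 19.1 CPM, where the other 7 samples ran from 0.901 to 10.7 CPM. All 6 erythroid genes that could be tested had a log2 fold change above 0, with a median of 2.08 (0.95 without cdKO replicate 5), and 0 of 6 passed the edgeR test. They included the embryonic globin genes Hbb-y, at 2.55 ± 2.81 CPM in control and 11.2 ± 12.1 CPM in cdKO samples, Hba-x, at 1.35 ± 1.64 and 5.85 ± 7.52 CPM, and Hbb-bh1, at 1.25 ± 1.73 and 5.64 ± 6.12 CPM (SD, n = 5 each). The same 3 samples were among the 4 highest in the sum of the 12 pan-neuronal genes, at 7696, 4941 and 6205 CPM, and the fourth, cdKO replicate 1, was at 5904 CPM. Control replicate 5, lowest in Fabp7 and highest in Lin28a and Lin28b, was the lowest in the neuronal sum, the highest in the sum of 8 cell cycle genes, at 3081 CPM against 1632 to 2935 CPM in the other 9, and the highest in the sum of 2 V3 interneuron genes, at 84.6 CPM against 10.7 to 29.5 CPM. Those 2 genes went opposite ways in it. Nkx2-9 held 84.5 CPM of the sum, while Sim1, at 0.148 CPM, was at its lowest of all samples. The cell cycle genes did not move together in control replicate 5 either. Ccnb1, Pcna and Mki67, at 910, 745 and 75.7 CPM, were at their highest of all samples. Mcm2, at 311 CPM, was lower only in cdKO replicate 5, at 88.3 CPM. The rest of that list was neither highest nor lowest there. The 6 mesenchyme genes summed to 6.14 to 18.3 CPM in control and 9.74 to 21.3 CPM in cdKO samples, all 6 with a log2 fold change above 0 (5 of 6 without cdKO replicate 5) and none past the edgeR test. Their sum was highest in cdKO replicate 4, where Fabp7 was at 205 CPM, and the sum of 5 endothelial genes was highest in control replicate 5, at 3.25 CPM, where Fabp7 was lowest. The part of these cells in the members' values was not tested.

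**Figure D5:**
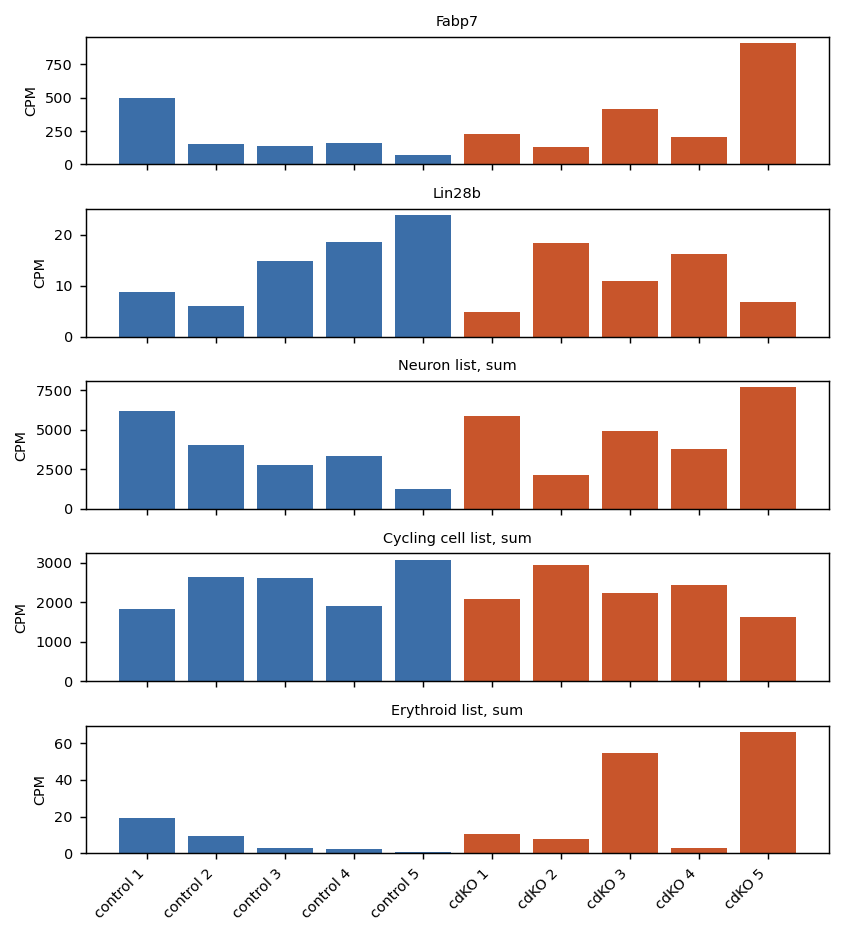
CPM in each of the 10 samples, control in blue and cdKO in orange, for Fabp7, Lin28b and the sums of the neuron, cycling cell and erythroid marker lists (linear axes from 0). Fabp7 is highest in cdKO replicate 5, control replicate 1 and cdKO replicate 3, the samples with the highest erythroid sums, and Lin28b is highest in control replicate 5, where the neuron sum is lowest.

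Other genes of the same biology gave no call either. Of 20 further stem and radial glial genes, 18 could be tested and 0 passed the edgeR test. Their log2 fold change was below 0 for 15 of 18, with a median of -0.20, where 51.8% of all genes were below 0 with a median of -0.02, and without cdKO replicate 5 it was again below 0 for 15, with a median of -0.28. The 3 with the highest level were Hes5, a Notch target, at 1149 ± 498 CPM in control and 1018 ± 303 CPM in cdKO samples, Id3, a repressor of proneural factors, at 617 ± 161 and 762 ± 221 CPM, and Cd24a, a surface protein gene, at 214 ± 69.4 and 286 ± 118 CPM (SD, n = 5 each). Of 16 genes of the Lin28 and let-7 axis, 15 had a log2 fold change below 0, with a median of -0.27, and 0 of 16 passed. Leaving out cdKO replicate 5 gave 13 of 16 below 0 and a median of -0.18. The highest of these were Ccnd2, a D-type cyclin gene, at 349 ± 177 and 257 ± 98.4 CPM, Hmga1, the paralog of Hmga2, at 235 ± 69.7 and 195 ± 92.4 CPM, and Igf2bp2, which encodes an RNA-binding protein, at 200 ± 49.9 and 157 ± 77.6 CPM. The mean of the cdKO samples lay within 1 SD of the control mean for each of these 6 genes except Cd24a, whose difference was edgeR adjusted p = 0.997.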

How the data were processed

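YFP-positive spinal cord cells of 5 control and 5 cdKO samples were profiled by RNA-seq. The authors deposited 1 table of raw read counts per exon bin for each sample, with no normalization. The submitters' processing notes name bcl2fastq 2.17, Trimmomatic 0.36, STAR 2.5.2b, Subread 1.5.2, DESeq2 and the build GRCm38. Of 425461 bins, 3988, holding 1.17% of the counts, were left out because they could not be given to 1 gene of GENCODE M21, and the rest were summed per gene. A read that spans bins can count more than once. Strand was not used: all 16 intervals annotated on both strands held identical counts.

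Genes were filtered with filterByExpr (minimum count 10) and cdKO was compared with control over all 10 samples with edgeR 4.0.16 (R 4.3.3), using TMM factors, the quasi-likelihood test, no covariate and Benjamini-Hochberg adjustment at 0.05. DESeq2 1.42.0 and limma 3.58.1 were alternatives. Single values were compared with exact two-sided permutation tests over 252 arrangements, whose smallest p is 0.00794. Ratios used a pseudocount of 0.5 CPM. A count of 3 corresponds to 0.0288 to 0.0591 CPM. Scripts were tested on simulated data. No sample was a duplicate of another in its group. The genes and lists were chosen with earlier results of these data known. All 10 members were named, and of each list the genes that passed the test or otherwise the 3 with the highest mean CPM. V3 interneurons had 2 listed genes, and 1 further list is not reported here.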

Additional observations from a re-analysis of the deposited data

Results flagged for a closer look

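In 3 of the 24 groups of 5 samples examined, 1 sample lay far from the other 4 by Dixon's criterion. For independent, normally distributed values chance alone flags about 1 in 20 groups, or 1.2 of 24. CPM values need not be so distributed and the groups share samples, so that rate need not hold here. Fabp7 was at 496 CPM in control replicate 1, where the other control samples ran from 72.5 to 162 CPM. Msi2 was at 25.2 CPM in cdKO replicate 5, where the other cdKO samples ran from 3.82 to 9.71 CPM. Hmga2 was at 40.7 CPM in cdKO replicate 5, where the other cdKO samples ran from 4.79 to 10.46 CPM.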

How the results depend on the processing

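Under all 25 alternatives 0 of the 10 members passed the adjusted threshold, with adjusted p from 0.520 to 0.9999. The members' median log2 fold change, 0.02 in the main fit, ran from -0.24 without the 3′-most block to 0.13 without cdKO replicate 1. Its direction was thus not stable. These moves were below 0.66, the SD over control samples of the members' median log2 level, but that limit is wide beside a median so near 0. Of 250 single values, 216 kept their direction and 34 turned. The count of genes called in the whole table was 0 with edgeR, 1 with library size scaling, 1 without the filter, 19 with DESeq2, 13 with sample weights in limma-voom and 3 without them, 4 without both samples numbered 5, 1 on the 3′-most block alone, 1 without that block, and 0 to 4 when 1 sample was left out (4 without control replicate 5, 1 without cdKO replicate 5). The fits without both samples numbered 5, on the 3′-most block alone and on all but that block were chosen after seeing the data. The cause of these changes was not tested.

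Turned values of single members and of the Lin28b to Lin28a ratio were as follows, all on the log2 scale. With library size scaling, which moved the median of all genes from -0.02 to -0.15, Slc1a3 was -0.039 and Hmga2 -0.20. With DESeq2 size factors Msi2 was 0.0074. With limma-voom Hmga2 was -0.13, and with sample weights Vim was -0.072, Msi1 -0.22, Hmga2 -0.46 and Lin28a 0.27, while Nes had an unadjusted p of 0.0173 (limma, adjusted p = 0.520). On the single highest exon bin Nes was 0.19 and Hmga2 -0.062. On bins of at least 100 bases Msi2 was 0.047, and on bins of 1 gene only Hmga2 was -0.42. Without both samples numbered 5 Vim was -0.073, Msi1 -0.16, Hmga2 -0.28, Lin28a 0.077 and Lin28b 0.047. On the 3′-most block alone Hmga2 was -0.15, and without it Msi1 was -0.10, Hmga2 -0.32 and the difference in the Lin28b to Lin28a ratio 0.063. With 1 sample left out in turn, Slc1a3 ran from -0.091 to 0.31, Msi1 from -0.054 to 0.36, Msi2 from -0.67 to 0.29, Hmga2 from -0.77 to 0.60 and Lin28a from -0.24 to 0.025.

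Samples of both groups share replicate numbers, but the labels give the number no meaning, and the correlations of same-numbered samples (0.094, -0.316, 0.165, 0.428 and 0.362) were not all above 0.1, and 2 of the 5 correlated best with their own number. With the replicate block 0 genes and 0 members were called, the members' median was -0.14 and Hmga2 was -0.12. Msi1 and Lin28a had the fewest counts, 238 to 729 per sample.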

Other observations

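Genes of later glial differentiation gave no call. Of 12 gliogenic genes, 9 could be tested, 0 passed the edgeR test and 5 had a log2 fold change below 0, with a median of -0.11. An unadjusted p under 0.05 was found for 2 of 9, 1 of them above 0 and 1 below, where 4.98% of all genes had one. Without cdKO replicate 5, 6 of 9 were below 0, with a median of -0.32. Glul, the glutamine synthetase gene, was at 94.9 ± 35.1 CPM in control and 87.6 ± 15.9 CPM in cdKO samples, Aldoc, an aldolase gene, at 11.8 ± 3.09 and 8.54 ± 2.44 CPM, and Slc1a2, the other glial glutamate transporter gene beside Slc1a3, at 11.3 ± 3.61 and 6.38 ± 2.80 CPM (SD, n = 5 each). The log2 fold change of Slc1a2 was -0.83 (SE 0.36, edgeR adjusted p = 0.938).

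Of the ventral progenitor genes listed, not all of them specific to motor neuron progenitors, 3 of 4 had a log2 fold change below 0. Among them was Olig2, the gene of the Cre driver, at 66.0 ± 19.0 CPM in control and 46.6 ± 19.3 CPM in cdKO samples (edgeR adjusted p = 0.982). Nkx6-1 was at 32.3 ± 7.84 and 29.1 ± 14.4 CPM and Nkx2-2 at 9.80 ± 3.38 and 10.3 ± 2.54 CPM. Of 8 postmitotic motor neuron genes, 4 were below 0, and 1 without cdKO replicate 5. Beside Isl1 they included Lhx3, at 96.6 ± 29.3 and 110 ± 56.0 CPM, and Isl2, at 106 ± 28.7 and 96.2 ± 57.6 CPM. Of 8 cell cycle genes, 6 were below 0 with all samples and 3 without both samples numbered 5. Ccnb1 was at 546 ± 224 and 452 ± 196 CPM, Mcm2 at 485 ± 176 and 465 ± 221 CPM and Mcm5 at 426 ± 159 and 395 ± 199 CPM. Of 12 neuronal genes, 9 were above 0, with a median of 0.24, and this rested on the samples numbered 5. It was 6 of 12 without cdKO replicate 5 (median 0.08), 5 without control replicate 5 (median -0.04) and 5 without both (median -0.18). Nefl was at 714 ± 555 and 855 ± 402 CPM, Stmn2 at 471 ± 282 and 1010 ± 882 CPM and Tubb3 at 634 ± 374 and 842 ± 445 CPM. Of the V3 interneuron genes, Nkx2-9 was at 26.3 ± 32.6 and 14.7 ± 8.24 CPM and Sim1 at 2.67 ± 2.08 and 2.54 ± 1.28 CPM, and both were below 0 with all samples but 1 of 2 without control replicate 5. None of these genes passed the edgeR test.

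Marker genes of further cell types were low. The summed level was 0.968 to 3.25 CPM for 5 endothelial genes, with Kdr, Pecam1 and Tie1 the highest, and 3.14 to 6.93 CPM for 5 myeloid genes, most of it from Csf1r, with group means of at most 0.214 CPM for Aif1 and Ptprc. Of the mesenchyme genes, Col3a1 was at 5.91 ± 3.79 and 8.59 ± 2.97 CPM, Col1a2 at 3.98 ± 0.676 and 6.42 ± 1.97 CPM and Pdgfra at 0.655 ± 0.238 and 0.677 ± 0.510 CPM.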
